A study of Mus musculus with 16 samples.

Results

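The 8 control embryos of a mouse study of Greb1l were examined, out of 16 embryos in all. Control embryos were the columns labelled Ctrl_G17 and Ctrl_G3 in the deposited tables, 4 each, and their reads were put on 1 scale by median-of-ratios factors. G17 controls and G3 controls are wild-type littermates of 2 mutant lines on C57BL/6J, in which the mutants carry Greb1lex17/ex17 (G17) or Greb1lem1Cjean/em1Cjean (G3). Each library holds total RNA from the microdissected cardiac region of 1 embryo at embryonic day 8.5. The labels give neither the litter nor the somite number of an embryo, so littermates cannot be told from unrelated controls of the same line. All embryos are separate samples by their titles and numbers, and the line and the deposited table coincide, and cannot be told apart.

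At this stage the mouse heart is a beating tube that is looping to the right. It is built from cardiomyocytes of the first heart field and is lengthened at both poles by second heart field progenitors of the dorsal pericardial wall, which receive retinoic acid, FGF, BMP, WNT and hedgehog signals. The tube lies against the foregut and is close to the pharyngeal arches, the neural tube and the yolk sac.

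The control libraries held 34617710 to 49353025 reads in genes, and 18182 to 22689 genes had at least 1 read. G17 control 35 had the fewest reads and the most genes with a read. In that embryo 1840 genes had 1 to 3 reads, against 580 to 686 in the other embryos. Mitochondrial genes took 1.71% to 2.13% of reads. Xist and Y-linked genes showed that all 4 G17 controls and G3 controls 16 and 20 were female, while G3 controls 18 and 21 were male. Across all 28 pairs of embryos the variance between libraries was at least 20.5 times that of sampling noise per gene, so no 2 libraries were duplicates.

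The promoters of 5 genes stand here for the gene groups that the results turn on: the heart muscle genes Myl7 and Tnnt2, the yolk sac gene Afp, and the placental genes Prl4a1 and Prl2c3, which mark 1 embryo. Each is the 250 bases before the RefSeq start, on the strand of the gene, from build GRCm38.p6, and none overlaps an annotated exon. Capitals mark matches on either strand. In Myl7 they mark a CArG box, the site that serum response factor binds. In Tnnt2, Prl4a1 and Prl2c3 they mark AGATAA, a core that the Gata family of factors binds. In Afp and Prl2c3 they mark GTTAAT, the core of the site of HNF1, a factor of endoderm. The last capitals of Afp mark TATAAA, the core promoter element next to a start.
Myl7 (chr11:5898783-5899032, minus strand): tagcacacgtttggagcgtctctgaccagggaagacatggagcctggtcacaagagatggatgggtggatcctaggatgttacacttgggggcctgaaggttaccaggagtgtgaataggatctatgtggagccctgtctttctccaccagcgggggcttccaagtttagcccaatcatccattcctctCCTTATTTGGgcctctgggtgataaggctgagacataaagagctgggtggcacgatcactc
Tnnt2 (chr1:135836084-135836333, plus strand): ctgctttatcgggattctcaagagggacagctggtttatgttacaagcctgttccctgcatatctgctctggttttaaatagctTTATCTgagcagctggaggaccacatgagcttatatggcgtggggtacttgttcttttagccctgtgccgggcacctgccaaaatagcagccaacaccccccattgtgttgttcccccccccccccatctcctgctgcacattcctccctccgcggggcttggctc
Afp (chr5:90490464-90490713, plus strand): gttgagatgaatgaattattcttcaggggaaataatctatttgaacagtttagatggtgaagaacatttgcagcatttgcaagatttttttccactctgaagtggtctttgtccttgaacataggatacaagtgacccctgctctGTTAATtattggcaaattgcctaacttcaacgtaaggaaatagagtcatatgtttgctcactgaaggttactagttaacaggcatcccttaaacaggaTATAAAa
Prl4a1 (chr13:28015962-28016211, plus strand): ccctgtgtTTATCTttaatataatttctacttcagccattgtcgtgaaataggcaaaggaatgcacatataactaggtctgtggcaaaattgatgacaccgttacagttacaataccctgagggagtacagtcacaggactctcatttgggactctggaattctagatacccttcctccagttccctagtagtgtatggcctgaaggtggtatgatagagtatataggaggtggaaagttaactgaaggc
Prl2c3 (chr13:12800080-12800329, minus strand): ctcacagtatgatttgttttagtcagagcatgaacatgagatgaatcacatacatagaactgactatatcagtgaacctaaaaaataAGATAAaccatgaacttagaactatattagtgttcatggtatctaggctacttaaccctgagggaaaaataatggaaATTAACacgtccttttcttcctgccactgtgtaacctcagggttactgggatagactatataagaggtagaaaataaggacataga

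A CArG box was found in 6 of 28 sarcomere promoters (21.4%), against 1.40% of all 27025 promoters of the same length. AGATAA was found in 8 of 21 promoters of the placental prolactin family (38.1%), against 10.2% of all. Among sarcomere promoters, Tnnt2 included, it was in 3 of 28 (10.7%), which is near the share of all. GTTAAT was found in 4 of 16 promoters of yolk sac genes (25%) and in 5 of 21 of the placental prolactin family (23.8%), against 6.51% of all. The prolactin-family genes are close copies, and Prl2c3, Prl2c5 and Prl7d1 each hold both motifs at nearly the same place. The 21 promoters are therefore not independent of each other. The other endoderm motif searched, that of HNF4, was in 0 of the 16 yolk sac promoters, against 0.374% of all. A match is a description of the letters and not a measured binding site.

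Levels below are RPKM values, that is normalised reads per kilobase of exon over the mean total of the 8 embryos, which allow genes to be compared with each other. In the control embryos 12815 genes had a mean level of at least 1, of which 11184 code for protein, and 10998 genes reached that level in every embryo. A mean level of at least 10 was reached by 5127 genes, of at least 100 by 395 and of at least 1000 by 17. Among protein-coding genes outside the mitochondrial genome, the highest were the translation elongation factor Eef1a1 (mean level 3247), the ribosomal stalk protein Rplp1 (2456), the chaperone Hsp90ab1 (1892), the cytoskeletal Actb (1587) and Ptma (1282). The imprinted RNA H19, which is abundant in embryonic mesoderm and endoderm, had a mean level of 1984, and its imprinted neighbour Igf2, a fetal growth factor, had 547. The mitochondrial genes mt-Cytb (3690), mt-Co1 (3446) and mt-Nd1 (3089) were among the 5 highest. The highest of all was Gm23935, annotated as a miRNA gene with 57 bases of exon, at 19526. Its level ranged from 12411 to 28243 between embryos.

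Heart muscle genes led the tissue-restricted transcripts. Of 32 sarcomere genes 29 had a mean level of at least 1 and 5 had at least 100. Myl7, the atrial myosin light chain that marks the whole early tube, had levels of 654, 506, 845 and 753 in G17 controls 20, 29, 35 and 37, against 693, 990, 686 and 755 in G3 controls 16, 18, 20 and 21. G17 control 29 was the lowest and G3 control 18 the highest, and the groups overlapped. The cardiac actin Actc1 averaged 579 ± 103 in G17 controls and 616 ± 124 in G3 controls (SD, n = 4 each). Acta2, the smooth muscle actin that early cardiomyocytes also use, averaged 249 ± 53.5 in G17 controls and 257 ± 42.3 in G3 controls. The atrial myosin heavy chain Myh6 averaged 141 ± 30.7 in G17 controls and 158 ± 37.6 in G3 controls, and the tropomyosin Tpm1 136 ± 19.4 and 140 ± 11.3. The calcium pump Atp2a2 averaged 126 ± 4.27 in G17 controls and 116 ± 11.6 in G3 controls.

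All 17 core cardiac transcription factors had a mean level of at least 1, so the defining factors of the labelled tissue were present. Hand1, of the left ventricle and of extraembryonic mesoderm and trophoblast, was the highest and the most uneven. Its levels were 34.7, 138, 70.9 and 62.6 in G17 controls, against 39.9, 137, 33.6 and 64.8 in G3 controls. The 2 highest embryos, G17 control 29 and G3 control 18, are those with the most yolk sac and the most trophoblast RNA described below, and the part of that RNA in the Hand1 level was not tested. Srf, the factor that binds CArG boxes, averaged 52.2 ± 3.05 in G17 controls and 55.6 ± 4.25 in G3 controls. Nkx2-5, which specifies cardiac progenitors and muscle, averaged 41.5 ± 6.78 and 44.9 ± 4.79. Gata4 averaged 41 ± 5.6 in G17 controls and 33.8 ± 2.65 in G3 controls, and Gata5 29.2 ± 2.57 and 28.2 ± 2.48.

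**Figure D1:**
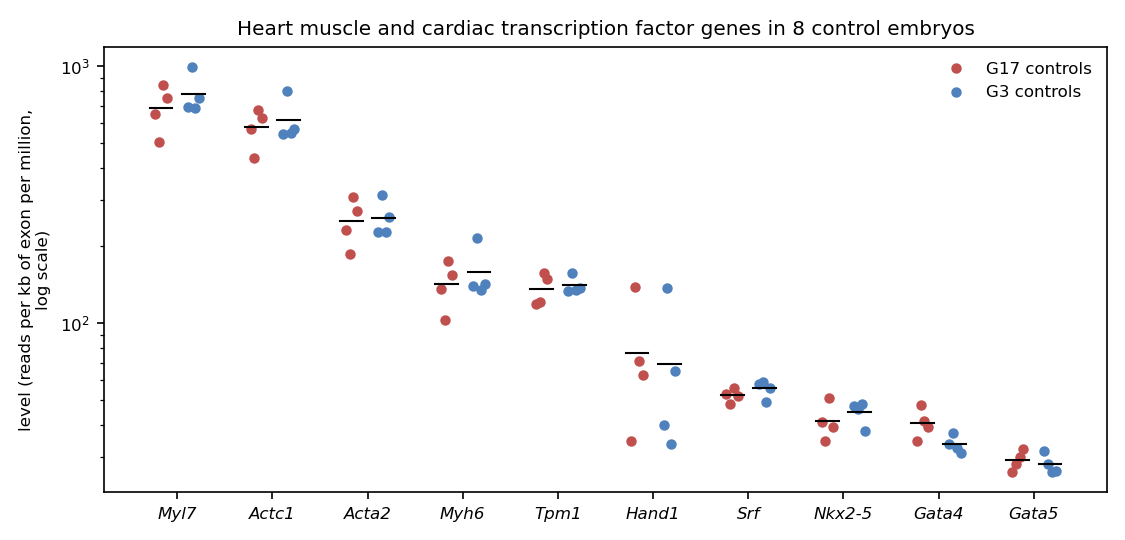
Levels (RPKM, log axis) of the 5 highest sarcomere genes and the 5 highest cardiac transcription factors in 4 G17 controls (left of each pair) and 4 G3 controls. Points are embryos and lines are means. The groups overlap for all 10 genes, and Hand1 spans 33.6 to 138.

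Progenitor genes were present at lower levels. All 19 second heart field genes had a mean level of at least 1, and 7 had at least 10. Foxc2, a factor of paraxial and cardiac mesoderm, had a mean level of 27.9, the T-box factor Tbx1 of 13.8, the growth factor Fgf8 of 11.4 and Isl1 of 7.23, the last 3 chosen after their values were seen. Tbx1 had levels of 16.6, 7.76, 16.3 and 16.6 in G17 controls, against 15, 9.27, 15.7 and 12.9 in G3 controls. G17 control 29 was the lowest and G3 control 18 the next lowest. Of the 15 genes of the posterior second heart field and inflow, 14 had a level of at least 1, led by the secreted WNT inhibitor Sfrp5 (78.4) and by Aldh1a2, which makes retinoic acid (65.5). The retinoic acid binding proteins Crabp1 and Crabp2 led the list of retinoic acid genes, with mean levels of 334 and 184. Greb1l (chromosome 18, 10325177 to 10562940, plus strand), the gene altered in both lines, had a mean level of 21 ± 1.07 in G17 controls and 23.7 ± 2.84 in G3 controls. Its paralog Greb1 had 11.3 ± 1.82 in G17 controls and 11.1 ± 1.07 in G3 controls.

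Markers of neighbouring tissues were found beside those of the heart. Levels of at least 1 were reached by 25 of 25 endothelial and endocardial genes, 16 of 18 foregut endoderm genes, 14 of 20 neural tube genes, 15 of 18 neural crest genes and 18 of 20 yolk sac endoderm genes. Among the highest were Plvap of endothelium (mean level 35.3), Krt8 of epithelia (221), Irx3 (41.1) and Sox2 (25.9) of the neural tube, Twist1 of neural crest and mesenchyme (55.8), and Meox1 of somites (56.6). Of 12 genes of macrophages and other blood cells only Itga2b (1.25) and Lyz2 (1.11) reached 1. In bulk RNA, fewer cells of a type and less RNA per cell cannot be told apart.

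The left-right pathway differed most in 1 embryo. NODAL is secreted in the left lateral plate before looping, and LEFTY2 and LEFTY1 are its inhibitors in the lateral plate and the midline. Nodal (chromosome 10, 61417972 to 61425338, plus strand) had 10.3, 558, 14.1 and 0 normalised reads in G17 controls 20, 29, 35 and 37, against 0, 0, 25.9 and 52.2 in G3 controls 16, 18, 20 and 21. A count of 0 allows up to 3 reads in a library. Lefty2 had 484, 2711, 238 and 816 in G17 controls, against 872, 346, 1221 and 1400 in G3 controls. Lefty1 was listed at levels of 0, 2.27, 0.196 and 0 in G17 controls and 0, 0.275, 0 and 0.165 in G3 controls. G17 control 29 was the highest embryo for all 3 genes. The groups overlapped for each of them. Nodal and Lefty1 were singled out after their values were seen.

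Spread between embryos depended on the read number. The SD of log2(value + 1) between embryos of the same line had a median of 0.30 over 17816 genes, and of 0.14 over genes with at least 1000 reads. The coefficient of variation within lines had a median of 89.7% for genes with 10 to 30 mean reads, 19.4% at 300 to 1000 reads and 5.71% above 30000 reads. Counting error alone gives 23.3%, 4.12% and 0.468% in the same bins. The median spread between embryos exceeded counting error in every bin of read number. The median SD was 0.29 in G17 controls and 0.27 in G3 controls, beside 0.27 in G17 mutants and 0.21 in G3 mutants. The steadiest genes within lines, of at least 50 CPM (normalised reads over the mean total of the 8 embryos), were Smchd1, Mlec, Rars, Hnrnpul1 and Eif3a. Their SDs were 0.02 to 0.03, which leaves out any difference between the lines. Rars had 7467 to 7781 normalised reads in G17 controls, against 8450 to 8732 in G3 controls. Smchd1 had 8063 to 8401 against 8757 to 8995. For Mlec, Hnrnpul1 and Eif3a the groups overlapped. Over all genes tested the groups did not overlap for 4.04%. Choosing genes by a small SD within lines makes such a separation more likely, so it is no result about these genes. Eif3a, a subunit of a translation initiation factor, ranged in level from 128 to 136 over the 8 embryos.

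**Figure D2:**
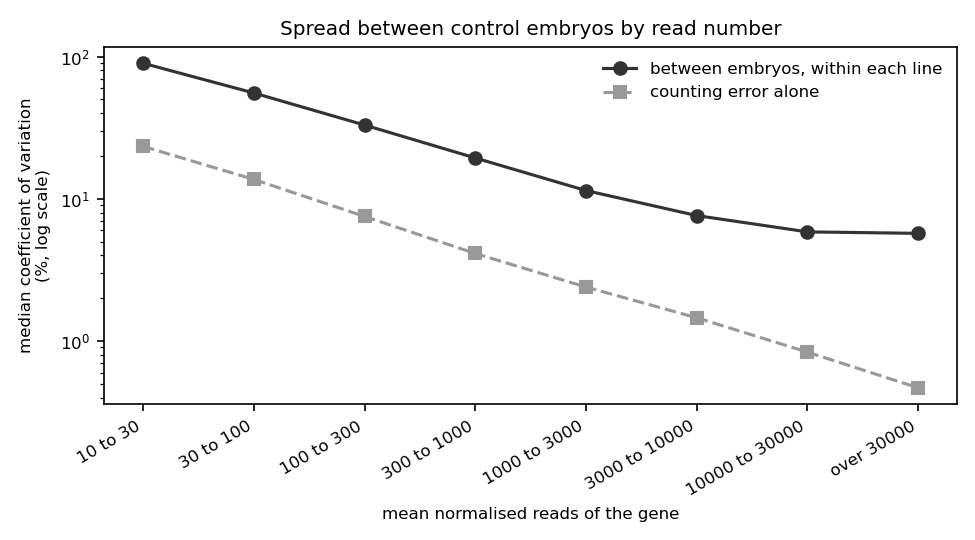
Median coefficient of variation between control embryos within each line (circles, solid line) and that of counting error alone (squares, dashed line), in percent on a log axis, for genes binned by mean normalised reads. The circles lie above the squares in all bins, at 89.7% against 23.3% in the lowest.

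At the other end stood genes of the placenta. Among 10707 genes with a mean of at least 5 CPM over the 8 control embryos, 13 of the 15 with the largest spread were highest in G3 control 18. A gene high in that embryo alone can pass this filter through it, so the filter in part sets that count. Prl4a1 (chromosome 13, 28016212 to 28023559, plus strand), a placental prolactin-family hormone, had 60.6, 123, 292 and 0 normalised reads in G17 controls, against 14.5, 22005, 183 and 87.0 in G3 controls. Prl3d1, placental lactogen of trophoblast giant cells, had levels of 3.64, 8.14, 9.60 and 0.587 in G17 controls, against 0.318, 162, 1.10 and 0.920 in G3 controls. In each case G3 control 18 stood alone. Summed over the 25 genes of the placental prolactin family, normalised reads were 850, 1492, 3553 and 448 in G17 controls, against 65.3, 46232, 608 and 628 in G3 controls. The 14 pregnancy-specific glycoprotein genes, another trophoblast family, summed to 5143 in G3 control 18 and to 0 to 352 in the other control embryos. The 8 mutant embryos held 427 to 4828 reads of the prolactin family. These families were chosen after the values were seen, and their members are close copies between which reads may be shared.

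In G3 control 18, 117 genes had at least 100 reads and more than 4 times the next highest control, with Prl4a1, A2m, Plet1, Adm and Prl2c3 at the head. The other control embryos had 0 to 31 such genes, and 5 of them had none. G17 control 29 had 31, among them Spp1, Lcn2, Aqp8 and Muc4. Spp1, the secreted phosphoprotein osteopontin, had levels of 0, 22.6, 0.803 and 0 in G17 controls, against 0.537, 0.624, 0.307 and 0 in G3 controls. Ltf and Lcn2, which encode secreted iron-handling proteins of epithelia and neutrophils, and Sprr2f, a small proline-rich protein of uterine epithelium, had levels of 7.35, 13 and 26.9 in G17 control 29 and of at most 0.658 in any other control embryo. These genes were chosen after their values were seen.

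Yolk sac endoderm genes varied most among the larger groups. The summed level of 20 such genes was 509, 2775, 1473 and 1292 in G17 controls 20, 29, 35 and 37, against 673, 417, 447 and 1273 in G3 controls 16, 18, 20 and 21. That is a coefficient of variation of 71.9%, against 18.5% for sarcomere genes and 10.9% for second heart field genes. The apolipoprotein Apoa1 had levels of 86.6, 549, 317 and 267 in G17 controls, against 126, 70.9, 74.6 and 278 in G3 controls, and the carrier protein Ttr 77.1, 391, 226 and 205 against 99.1, 56.8, 67.4 and 194. The same embryos were high and low for both. In G17 control 29 the yolk sac sum was the highest of all 8 and the sums of sarcomere genes (1762) and second heart field genes (155) were the lowest. In G3 control 18 the sarcomere sum was the highest (3294). Whether the extent of the dissected piece sets these sums was not tested.

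**Figure D3:**
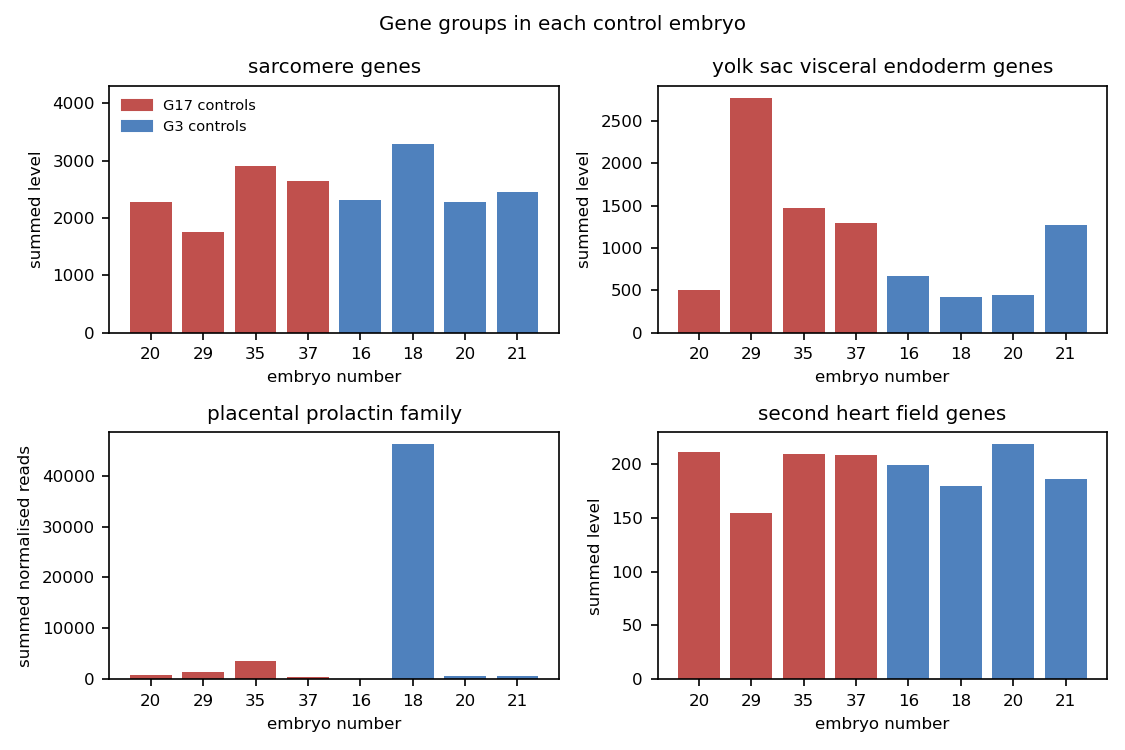
Summed levels (RPKM) of sarcomere, yolk sac and second heart field genes, and summed normalised reads of the placental prolactin family, in 4 G17 controls and 4 G3 controls. Bars are single embryos. G17 control 29 has the highest yolk sac sum (2775) and G3 control 18 holds 46232 prolactin-family reads.

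The next comparison asks whether controls of the 2 lines can stand for each other. No gene differed between G17 controls and G3 controls in limma on log2(value + 1) with Benjamini-Hochberg adjustment. The count was 0 of 17816 genes tested (0%), and the smallest adjusted p was 0.701. At an unadjusted p under 0.05 there were 1259 genes (7.07%), of which 680 were higher in G17 controls (3.82%) and 579 lower (3.25%). The 2 groups of embryos did not overlap for 720 genes (4.04%). The quasi-likelihood test of edgeR on the recovered reads called 0 genes, with 1100 at an unadjusted p under 0.05. DESeq2 called 14 genes higher and 33 lower in G17 controls, which is 2.07% of the 2273 genes to which it gave an adjusted p. All 47 had a mean of at least 4369 reads, and their log2 fold changes were 0.16 to 0.56 in size. DESeq2 gives an adjusted p only to genes above a read number that it sets, so its filter in part fixes that floor.

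The precision of this comparison follows the read number. Among 6474 genes with 1000 to 10000 mean reads the median standard error was 0.10 on the log2 scale, and 99.6% of the fold changes were less than 2-fold. Among 4933 genes with 10 to 100 reads the median standard error was 1.16, and 63.1% were less than 2-fold.

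No cardiac gene passed the test. Of the 17 core factors, 10 were higher and 7 lower in G17 controls, and the median log2 fold change was 0.09, against -0.0038 over all genes tested. Gata4 was 0.27 higher (SE 0.10) and Tbx5, a factor of the inflow and the left ventricle, 0.27 higher (SE 0.10), each with an adjusted p of 0.701 in limma. None of 31 sarcomere genes passed, 11 were higher and 20 lower, with a median of -0.06, which was 0.08 without G17 control 29 and 0.05 without G3 control 18. Myl7 was lower in G17 controls by a log2 fold change of -0.19 (SE 0.15, 95% interval -0.51 to 0.13, adjusted p = 0.793 in limma). Without G17 control 29 and G3 control 18 its difference was 0.07. None of 19 second heart field genes passed, with a median of -0.12, which was 0.07 without G17 control 29 and -0.18 without G3 control 18. Among them Bmp4, a ligand of the outflow and inflow mesoderm, was 0.65 higher (SE 0.22). Of 15 genes of the posterior second heart field and inflow none passed, with a median of 0.13, and Wnt2 of the inflow was 0.42 higher (SE 0.13).

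Greb1l did not pass either. It had 9855, 9919, 8899 and 9312 normalised reads in G17 controls, against 10890.4, 9099, 12225 and 10679 in G3 controls. The groups overlapped, and the difference was -0.17 (SE 0.08, 95% interval -0.35 to 0.01, adjusted p = 0.704 in limma). Greb1 differed by 0.02 (SE 0.11, 95% interval -0.22 to 0.26).

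Genes of the ribosome were lower in G17 controls by small amounts. Of 75 cytosolic ribosomal protein genes 70 were lower and 5 higher, with a median log2 fold change of -0.11, and 30 of the 75 were lower at an unadjusted p under 0.05, against 3.25% of all genes tested. For 21 of the 75 all G17 controls lay under all G3 controls, which held for 401 of all genes tested (2.25%). None passed in limma. DESeq2 called 9 lower, where it called 33 genes lower in all, or 1.45% of the 2273 genes to which it gave an adjusted p. The summed level was 23711, 23088, 22976 and 22483 in G17 controls, against 25128, 24248, 25161 and 25166 in G3 controls, with no overlap. Rps20 had 15685, 16039, 15633 and 15381 normalised reads in G17 controls, against 18304, 17695, 18863 and 18456 in G3 controls. Its difference was -0.22 (SE 0.05, unadjusted p = 0.000427, adjusted p = 0.701 in limma and 0.000937 in DESeq2). Rplp1 differed by -0.28 (SE 0.06, adjusted p = 0.701 in limma and 0.0107 in DESeq2) and Rps13 by -0.24 (SE 0.05). Ribosome biogenesis genes, which build and modify ribosomal RNA in the nucleolus, had a median of -0.12, with 31 of 34 lower and 11 lower at an unadjusted p under 0.05. Without G17 control 29 that median was -0.07. Among them Ddx21, a nucleolar helicase, differed by -0.23 (SE 0.06) and the nucleolar chaperone Npm1 by -0.14 (SE 0.06). The medians of both lists stayed below 0 on the values as deposited and with the alternative scalings tried. Many ribosomal protein genes have processed copies, between which reads may be split.

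Mutant embryos of the same lines, which share no embryo with the controls, gave a median of -0.10 for the ribosomal protein genes, with 6 of 75 higher in G17 mutants. Rplp1 was 0.22 lower in G17 mutants than in G3 mutants (log2 fold change -0.22, SE 0.05, adjusted p = 0.116 in limma). In mutants Rps20 differed by -0.13 (SE 0.08, adjusted p = 0.738 in limma) and Rps13 by -0.15 (SE 0.06, adjusted p = 0.693 in limma). For ribosome biogenesis the median was -0.02 in mutants. The line and the table in which embryos were deposited cannot be told apart here.

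Yolk sac genes had the opposite sign in controls. All 19 tested were higher in G17 controls, with a median of 1.14. Of them 14 had an unadjusted p under 0.05, where 3.82% of all genes tested were higher at that threshold, and none passed after adjustment. For none did the groups separate. Apoa4, an apolipoprotein of intestine and yolk sac, had 699, 5813, 2134 and 2118 normalised reads in G17 controls, against 560, 312, 390 and 1853 in G3 controls. The difference was 1.79 (SE 0.60, adjusted p = 0.701 in limma). The fetal albumin relative Afp differed by 1.44 (SE 0.54). Without G17 control 29 the median of the list was 0.77. In mutants the median was 0.02.

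Embryonic globin genes were highest in G17 control 29. Hba-x, the zeta globin of primitive red cells, had 220, 1389, 765 and 289 normalised reads in G17 controls, against 0, 173, 42.4 and 4.58 in G3 controls, and the groups did not overlap. Its difference was 5.16 (SE 1.28, unadjusted p = 0.0016, adjusted p = 0.701 in limma), where embryos near 0 make the value on this scale large. Hbb-bh1, the beta-like embryonic globin, had 124, 1158, 637 and 64.2 in G17 controls, against 0, 97.4, 68.3 and 23.8 in G3 controls. The erythroid list as a whole had a median of 1.99 over 11 genes, also with its 1 gene that was at 0 in all G3 controls, Gata1, set to the bound that 3 reads in each library allow. Without G3 control 18 that median was 3.22, and with sex as a term 3.91. In mutants the median of the list was 0.01, with 6 of 11 higher in G17 mutants, and Hba-x differed by -0.33 (SE 1.78).

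Of 23 extracellular matrix genes 19 were higher in G17 controls (median 0.23) and none passed. At an unadjusted p under 0.05, 7 were higher, against 3.82% of all genes tested. Without G17 control 29 the median was 0.13. Col1a1 had 1895, 5208, 3129 and 2743 normalised reads in G17 controls, against 1367, 1596, 1601 and 1908 in G3 controls, a difference of 0.92 (SE 0.23) and the groups overlapped only between G17 control 20 and G3 control 21. Col3a1 differed by 0.56 (SE 0.15). Serpinh1, the collagen chaperone, had 38830, 42370, 43351 and 37401 in G17 controls, against 33841, 33407, 32605 and 35831 in G3 controls, with no overlap and a difference of 0.25 (SE 0.06, adjusted p = 0.701 in limma and 0.00518 in DESeq2). In mutants the Serpinh1 difference was -0.07 (SE 0.06). The gene was singled out after its value was seen.

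Plagl1 (chromosome 10, 13060504 to 13131694, plus strand), an imprinted zinc finger factor that regulates other imprinted genes, had the smallest p of the imprinted list. It had 6199, 6275, 8562 and 6993 normalised reads in G17 controls, against 4845, 4906, 3969 and 5274 in G3 controls, and the groups did not overlap. The difference was 0.56 (SE 0.11, unadjusted p = 0.000321, adjusted p = 0.701 in limma and 0.00157 in DESeq2). In mutants it was 0.53 higher in G17 (SE 0.12). H19 differed by 0.34 (SE 0.12) and Igf2 by 0.27 (SE 0.09) in controls, and by -0.03 (SE 0.10) and 0.01 (SE 0.10) in mutants. Of 26 imprinted genes 18 were higher in G17 controls, with a median of 0.15 that was 0.09 without G17 control 29, and none passed.

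**Figure D4:**
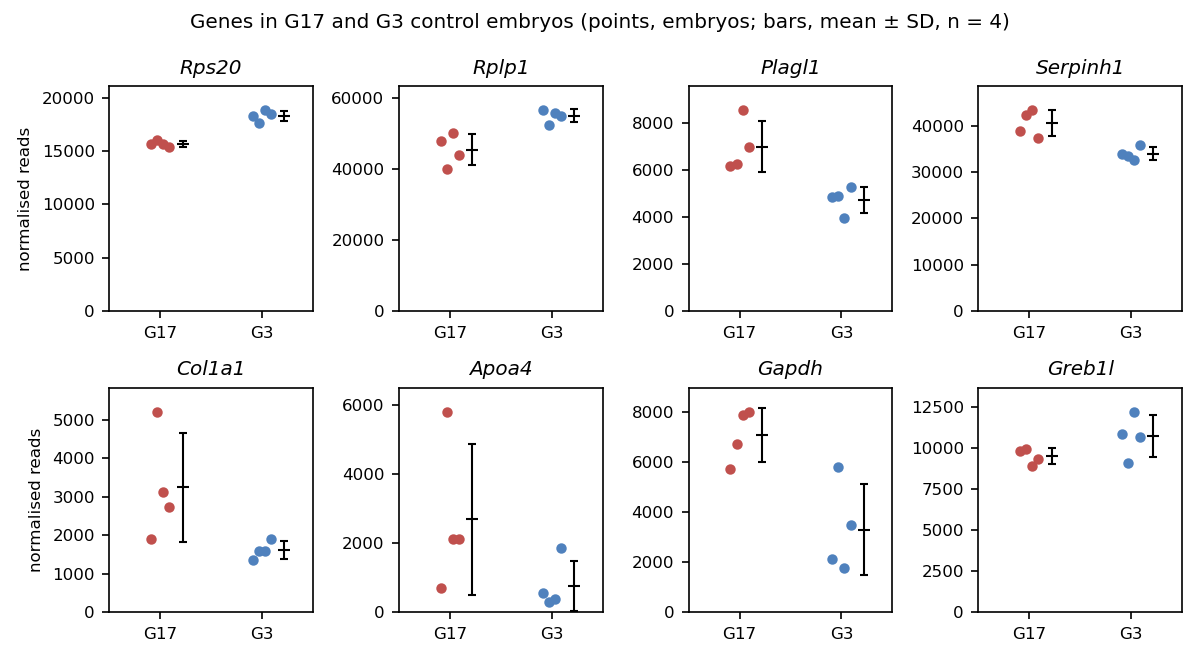
Normalised reads of 8 genes in G17 controls (left) and G3 controls (right); points are embryos and bars are the mean ± SD (n = 4). Rps20 and Rplp1 are lower and Plagl1 and Serpinh1 higher in every G17 control than in any G3 control, and none of the 8 passed the adjusted test in limma.

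No member of the other lists passed in limma. All 13 mitochondrially encoded genes had values above 0 (median 0.23, and 0.12 in mutants). At an unadjusted p under 0.05, 3 were higher, against 3.82% of all genes tested. The respiratory subunit mt-Nd2 differed by 0.27 (SE 0.07). All 6 genes tested of the early embryo list had values below 0, with a median of -1.07 that was 0.24 in mutants. In mutants 3 of 5 were higher in G17. The list is near the floor: of its 12 genes 3 reached a mean level of 1, and 9 were at 0 in at least 1 embryo. The pluripotency factor Pou5f1 was the one at an unadjusted p under 0.05, where 3.25% of all genes tested were lower. It had 248, 297, 133 and 312 normalised reads in G17 controls, against 518, 339, 537 and 468 in G3 controls, a difference of -0.96 (SE 0.29) that was 0.77 in mutants (SE 0.36). Of 20 Hox genes 6 were higher at an unadjusted p under 0.05, beside the same 3.82%, among them Hoxb4, a trunk patterning gene, by 0.73 (SE 0.23). The Hox median was 0.09 in controls and -0.39 in mutants, where 2 of 19 were higher in G17. Of 12 surface ectoderm genes 11 were higher, with a median of 0.27 that was 0.10 without G17 control 29 and -0.24 in mutants. Of 10 BMP response genes 9 were higher, with a median of 0.26 that was 0.09 without the same embryo and 0.11 without G3 control 18. The BMP response median was -0.15 in mutants. Of 25 DNA replication genes 23 were lower, with a median of -0.10. Of 25 mitosis genes 11 were higher and 14 lower, and of 18 p53 targets 9 were higher and 9 lower.

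**Figure D5:**
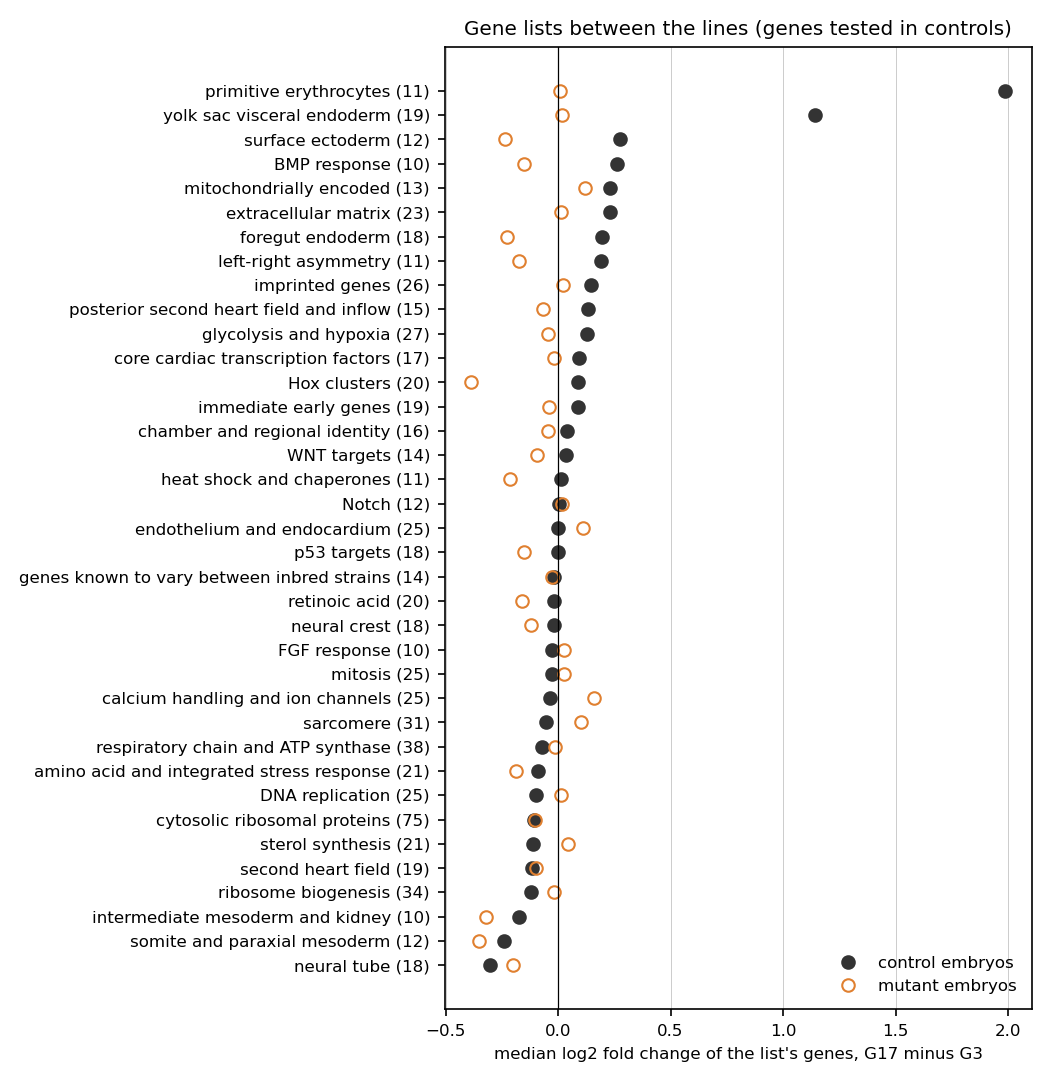
Median log2 fold change (G17 minus G3) of each gene list with at least 10 genes tested, in control embryos (filled) and mutant embryos (open), with the number of genes in brackets. Medians in controls run from -0.30 for the neural tube (-0.03 without G17 control 29) to 1.99 for primitive erythrocytes (3.22 without G3 control 18), and that of ribosomal proteins is -0.11 in controls and -0.10 in mutants.

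Sex was not balanced, since both male controls were G3. With sex as a term, limma called 1 gene between the lines, the glycolytic enzyme Gapdh, and with the 6 female embryos alone it called the same gene. All G17 controls were female, so both fits set G17 controls against G3 controls 16 and 20. They are therefore not separate checks of each other. Gapdh (chromosome 6, 125161715 to 125166467, minus strand) had 5752, 6740, 7913 and 8036 normalised reads in G17 controls, against 2157, 5833, 1765 and 3516 in G3 controls, where the females 16 and 20 were lowest. The difference was 1.25 in all 8 embryos (SE 0.29, adjusted p = 0.701 in limma) and 1.85 with the sex term (adjusted p = 0.0157 in limma). In mutants it was 0.03 (SE 0.25). The genome holds 22 further genes with at least 500 bases like Gapdh. They summed to 3565, 3489, 2540.0 and 2625 reads in G17 controls and 2795, 2814, 3125 and 3024 in G3 controls. Gapdh and these copies together summed to 9316, 10229, 10453 and 10661 reads in G17 controls, against 4951, 8647, 4890.0 and 6540 in G3 controls, and these sums did not overlap. Gapdh averaged 7110 reads in G17 controls and 3317 in G3 controls, where the glycolytic enzyme Pkm averaged 173021 and 171344. Reads that match several copies alike may be missing from every count and from the sums, and this was not tested. The sex term itself rests on G3 controls 18 and 21 against G3 controls 16 and 20. Among the genes tested it called Xist alone. The 4 Y-linked genes did not reach the filter and were not tested.

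The comparison of mutant embryos shows the lines in other embryos. Sex was unbalanced there too, since all 4 G17 mutants were female and 2 of the 4 G3 mutants were male. Between G17 mutants and G3 mutants limma called 11 genes higher and 1 lower of 18016 (0.0666%), and with sex as a term it called 4. The 1 gene called lower was Greb1l itself. Of the 12 genes, 2 had an unadjusted p under 0.05 between the controls in limma, with the same sign. They were Igfbp2, an insulin-like growth factor binding protein, and Scube3, a secreted glycoprotein. At an unadjusted p under 0.05 there were 1281 genes between the mutants (7.11%). Of 17069 genes tested in both comparisons, 1228 passed that threshold in controls and 1224 in mutants (7.17%). Both held for 109 genes, which is 8.88% of the control list and 8.91% of the mutant list. Of the 109, 69 had the same sign and 40 opposite signs.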

How the data were processed

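The RNA (RIN above 9.0) was sequenced as paired-end reads of 100 bases on a NovaSeq6000, per the labels' protocols. HISAT2, featureCounts, Subread, DESeq2 and GRCm38 are named in the submitters' processing notes. Tool versions and the strand setting were not stated, so overlapping genes on opposite strands may share reads. The authors deposited a signal for 48526 genes, namely reads divided by a size factor for each library, in 1 table for each line. Dividing the signal by its step gave whole numbers (within 0.01) for 100% of the values up to 5000 reads. The count tests of edgeR 4.0.16 and DESeq2 1.42.0 on these reads were alternatives and called 0 and 47 genes.

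Both tables were put on 1 scale by median-of-ratios factors over the 8 control embryos, and the mutants by factors of their own. Levels use union exon lengths of GENCODE M21, matched for 99.2% of genes. The test was limma 3.58.1 (R 4.3.3) with a mean-variance trend on log2(value + 1), over genes that reached 10 normalised reads in 4 or more of the 8 embryos, with Benjamini-Hochberg adjusted p under 0.05. This scale understates the change of low genes, except where a group is near 0. P-values measure only the spread between these embryos, which may share litters. A count of 0 allows 3 reads, which covers counting error only. Members and the 47 lists (815 genes, 811 matched) were chosen with earlier results of these data known. Genes were named by a rule: Greb1l, Greb1 and Xist, the 25 highest levels, the 5 highest members and the 4 smallest p-values of each list, and the 15 most and 5 least variable genes. No gene passed the parts of the rule on called genes. Genes outside it were chosen after their values were seen: Tbx1, Fgf8, Isl1, Tnnt2, Nodal, Lefty1, Serpinh1, Oxct1, Igfbp2, Scube3, Lcn2, Ltf, Sprr2f, A2m, Plet1, Adm, Aqp8 and Muc4. Some genes are not reported here.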

Additional observations from a re-analysis of the deposited data

Results flagged for a closer look

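In groups of 4 embryos a value was looked at again where its gap to the nearest embryo exceeded 0.829 of the group's range. Of 210 such checks 25 were met (11.9%). Chance alone flags about 1 in 20 groups, but many of the genes checked were chosen after their values were seen, so the 2 shares cannot be compared.

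Of these, 9 were in G17 control 29. Its summed level was 155 for second heart field genes, against 209 to 212 in the other G17 controls, and 119 for FGF response genes, against 157 to 159. Tbx1 had a level of 7.76, against 16.3 to 16.6. Nodal had 6.5, against at most 0.165, and Lefty1 2.27, against at most 0.196. Spp1 had 22.6, Lcn2 13, Ltf 7.35 and Sprr2f 26.9, against at most 0.803, 0.658, 0.342 and 0.567 in the other G17 controls.

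G3 control 18 had the summed levels 3294 for sarcomere genes (others 2284 to 2443), 290.4 for calcium handling and ion channels (233 to 241), 399.7 for neural crest genes (528 to 551) and 24248 for ribosomal proteins (25128 to 25166). Its levels were 802 for Actc1 (others 546 to 567), 214 for Myh6 (135 to 142) and 157 for Tpm1 (133 to 137). The placental genes stood at 613 for Prl4a1, 162 for Prl3d1, 112 for Prl2c3 and 74.7 for Plac1, against at most 5.10, 1.10, 1.69 and 3.94. Lcn2 (0.0999) and Ltf (0.117) were above 0 in this embryo and at 0 in the other G3 controls.

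The remaining values were a mitochondrial share of 1.75% in G17 control 20 (others 2.07% to 2.13%), a level of 24.9 for Apoa4 in G3 control 21 (others 4.20 to 7.53), and 103 for Rps13 in G3 control 20 (others 100.0 to 100.6).

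For 2 of 20010 genes the difference between the lines itself differed between mutants and controls in limma over all 16 embryos. For Greb1l the difference (G17 minus G3, log2) was -2.28 in mutants and -0.17 in controls, so that mutants minus controls gave -2.11 (adjusted p = 9.83e-06 in limma). For Oxct1, an enzyme that uses ketone bodies, it was 1.42 in mutants and -0.15 in controls, which gave 1.57 (adjusted p = 0.0019 in limma).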

How the results depend on the processing

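No paired analysis was possible because G17 controls and G3 controls share only 1 replicate number, 20, and the numbers name embryos. The count of genes differing between the control groups was 0 in limma and stayed 0 with edgeR (TMM and RLE), limma-voom, pseudocounts of 0.1 and 5, no filter, at least 5 CPM, thresholds of 0.01 and 0.1, the other scalings and all 16 embryos in 1 fit. It was 47 with DESeq2, and 1 with sex as a term or female embryos only. Among list genes it was 15 with DESeq2 and 1 with sex as a term or female embryos only. Leaving out each embryo gave 0 to 0 for all genes and for list genes, with smallest adjusted p-values of 0.101 to 0.885. Added after seeing the data, a robust variance estimate and the fit without G17 control 29 and G3 control 18 gave 0. Between mutants the count of 12 became 4 with sex as a term and 5 to 17 on leaving out each embryo, 5 of them without G17 mutant 42. Genes expressed numbered 19803 at a level of 0.1 and 5127 at 10. The median SD of 0.30 between embryos was 0.27 to 0.31 on leaving out each embryo, an alternative chosen after seeing the data. Of 28 genes with a printed fold change 24 kept their direction in every alternative. Greb1 gave -0.088 with sex as a term, -0.15 without G17 control 29 and G3 control 18, and -0.084 to 0.083 on leaving out each embryo, with -0.084 without G17 control 29 and -0.045 without G3 control 18. Myl7 gave 0.072 without both embryos, Xist -0.014 with sex as a term, and Oxct1 0.070 without both embryos and -0.26 to 0.021 on leaving out each embryo, with 0.021 without G17 control 29. The cause was not tested.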
